A study of Mus musculus with 8 samples.

Results

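The aminoacyl-tRNA synthetases were examined in OT-I CD8+ T cells that had been treated with GC7 or with vehicle. The group comprised 39 genes of the 55536 in the count tables, and every member was found by its symbol (methionyl-tRNA synthetase of the cytosol, *Mars1*, is listed under the older name *Mars*). It held 23 genes of the cytosol and 16 genes for mitochondrial synthetases. Of the 23, 8 encode synthetases of the multi-synthetase complex, 3 encode scaffold proteins of that complex and 12 encode other cytosolic synthetases. All 39 passed the filter on low values. GC7 inhibits deoxyhypusine synthase, the enzyme that begins the hypusine modification of the translation factor eIF5a. The study that reported these data also describes effects of GC7 that do not depend on eIF5a. The part of hypusination in the changes below was not tested. The cells came from lymph nodes of C57BL/6 mice aged 5 to 12 weeks, which were Rag-1 knockout and carried the OT-1 T cell receptor transgene. In both groups the cells were activated for 2 days with 100 nM of the ovalbumin peptide SIINFEKL and then kept for 2 days in 20 ng/mL IL-2. During those last 2 days the 4 GC7 cultures received 10 µM GC7 and the 4 Mock cultures only vehicle. All T cells carried 1 transgenic receptor, and the methods describe the 4 cultures of each group as biological replicates.

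Each synthetase joins 1 amino acid to its tRNA, and the charged tRNA is then carried to the ribosome by elongation factor eEF1A. In the cytosol of animal cells several synthetases sit in the multi-synthetase complex, held together by the scaffold proteins AIMP1, AIMP2 and AIMP3 (the product of *Eef1e1*). Mitochondria import nuclear-encoded synthetases for their own protein synthesis, for most amino acids from separate genes. The members hold no separate mitochondrial gene for glycine or lysine, and *Gars* and *Kars* were counted with the cytosol. When tRNA stays uncharged, the kinase GCN2 phosphorylates initiation factor eIF2, translation of the transcription factor ATF4 rises, and ATF4 is known to drive genes for amino acid supply and several cytosolic synthetase genes. Proliferating T cells have a high demand for charged tRNA.

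Between 20045041 and 25284730 counts were assigned to genes in the Mock libraries and between 17528776 and 23449164 in the GC7 libraries. Levels are given as CPM, the count scaled to library size. The 8 CD8 T cell markers were present in every library and summed to 9200 to 10496 CPM in Mock and 6550 to 8272 CPM in GC7. They did not move together: *Cd8a* was higher in GC7 (703 ± 27.6 against 978 ± 30.4 CPM, SD, n = 4), 4 were lower (*Cd3e*, *Cd3g*, *Thy1* and the effector gene *Gzmb*) and 3 did not pass the test. *Gzmb*, at 4438 ± 405 CPM in Mock and 2907 ± 689 CPM in GC7, made up most of the difference in the sum. The part of these differences in the results was not tested. Lists for CD4 T cells, B cells, myeloid cells, NK cells, stroma and erythroid cells summed to at most 1.23 CPM, and none of their genes passed the filter. The lowest count of any synthetase gene in any library was 110. Bulk RNA cannot separate fewer cells of 1 kind from less RNA per cell. Library sizes were corrected by TMM factors.

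Promoter sequence is shown for 3 of the members in which the core of the C/EBP-ATF response element, TGATGCA, was found, since ATF4 binds elements of this kind. RefSeq promoter windows (GRCm38.p6, 250 bases before to 50 bases after the RefSeq start) were matched for 30 of the 39 members. TGATGCA on either strand stood in the windows of 4 of these 30, among them *Iars*, *Tars* and *Yars*, and in 3.15% of all 32851 windows. The stretches below read 5′ to 3′ on the strand of the gene, with the match in capitals (TGCATCA is TGATGCA on the opposite strand). They lie at chr13:49682127-49682155 (plus strand), chr15:11399655-11399683 (minus) and chr4:129189895-129189923 (plus), in this order.
Iars: actgtcagtatTGCATCAcctccagacgc
Tars: aggagtcccgtTGCATCAgctggttagct
Yars: acgagctcagcTGATGCAacccgacggga
The match began 14 bases before the RefSeq start in *Tars*, and 8 and 3 bases after it in *Iars* and *Yars*. The RefSeq start lies 7, 30 and 143 bases downstream of the outermost Ensembl start of these genes. The E-box CACGTG, a palindrome, was in the windows of 5 members, among them *Iars*, *Tars*, *Farsb* and *Ears2*, and in 7.15% of all windows. The 100 bases before the RefSeq start of *Dars* (chr1:128417417-128417516, minus strand) and of *Mars2* (chr1:55237077-55237176, plus strand) are given because these genes had the strongest fall and the strongest rise of the group. For *Dars* the RefSeq start is 48 bases upstream of the outermost Ensembl start, and for *Mars2* they are the same base. Neither gene's window held TGATGCA or CACGTG.
Dars: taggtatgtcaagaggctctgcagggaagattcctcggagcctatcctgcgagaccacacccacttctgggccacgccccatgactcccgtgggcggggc
Mars2: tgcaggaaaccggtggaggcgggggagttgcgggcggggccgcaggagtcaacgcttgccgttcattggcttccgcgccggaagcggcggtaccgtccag

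Synthetase transcripts differed widely in level before any treatment effect. Per kilobase of annotated exon, *Gars* (glycyl-tRNA synthetase) stood highest in Mock at 101 ± 6.23 CPM per kb (SD, n = 4), with *Vars* (valyl) at 99.3 ± 3.19 and *Sars* (seryl) at 86.8 ± 6.72. The lowest level was that of *Ears2*, the mitochondrial glutamyl enzyme, at 1.24 ± 0.0994 CPM per kb. The median level in Mock was 26.8 CPM per kb over the 23 cytosolic genes and 4.57 over the 16 mitochondrial genes. *Lars2*, the mitochondrial leucyl enzyme, was the exception among the latter, with 43.3 ± 25.9 CPM per kb. The exon length used here counts every annotated exon of a gene, so genes with many long alternative transcripts appear lower than their main transcript would.

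GC7 treatment left most of the synthetase genes within a narrow range. Of the 39 members, 11 passed an FDR of 0.01 (28.2%), against 46.6% of the 11189 genes tested, with 7 higher in GC7 and 4 lower. Over all genes tested, 23.0% were higher and 23.5% lower. No member changed more than 2-fold, whereas 8.48% of the tested genes did at this FDR (3.17% higher and 5.31% lower). This count of 0 was the same in edgeR at an unadjusted p under 0.05, in DESeq2 and in limma-voom. The median absolute log2 fold change was 0.20 over the members and 0.29 over all genes tested, and the log2 fold change was under 0.25 in size in 24 members (61.5%) and in 43.9% of all genes tested. The libraries of the groups did not overlap for 16 members (41.0%), 10 higher and 6 lower in GC7, against 55.6% of all genes tested (28.1% higher and 27.5% lower). Scaled by library totals, 11 members were higher and 3 lower, so that 78.6% of the calls were rises, compared with 63.6% under TMM scaling. That scaling moved all genes: 48.3% of those tested were called, and the share of rises among these calls went from 49.5% to 61.9%.

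**Figure D1:**
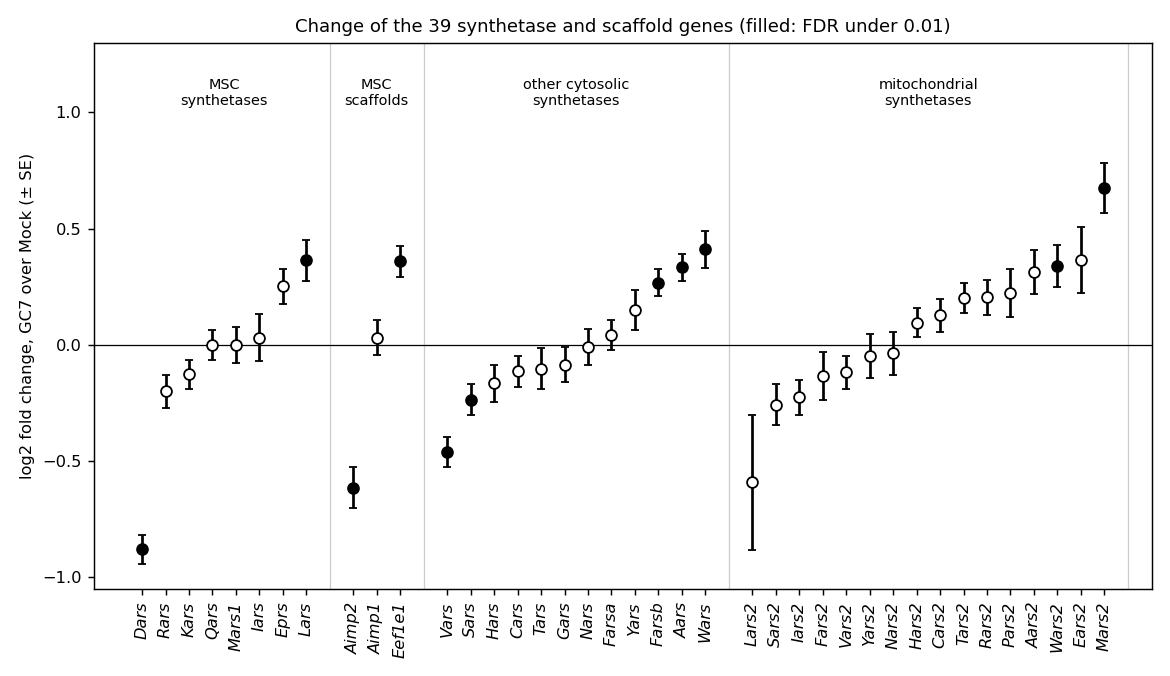
The log2 fold change of each of the 39 genes, GC7 over Mock, is plotted with its standard error (n = 4 per group), by class (MSC, multi-synthetase complex) and sorted within it; filled circles passed an FDR of 0.01 in edgeR. *Dars* at -0.88 and *Mars2* at 0.68 lie at the ends, and *Lars2* has the longest error bar.

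Within the multi-synthetase complex the 2 synthetase genes that passed the test went in opposite directions. Of its 8 synthetase genes, *Lars* (leucyl) rose, *Dars* (aspartyl) fell and 6 did not pass the test, with a median log2 fold change of -0.00087. The called share was 25%, against 46.6% of all genes tested (23% higher and 23.5% lower). *Dars* (ENSMUSG00000026356, chr1:128363707-128417368 in GRCm38) measured 260, 255, 258 and 257 CPM in Mock libraries 1 to 4 and 144, 151, 126 and 138 CPM in GC7 libraries 1 to 4. Every GC7 library was thus far below every Mock library, and the Mock libraries lay within 4.67 CPM of each other. The log2 fold change was -0.88 ± 0.064 (SE), a 1.84-fold lower level (edgeR adjusted p = 2.51e-07), and it was the strongest change of the group in either direction.

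*Lars* measured 130, 110, 114 and 114 CPM in the Mock libraries and 164, 163, 125 and 149 CPM in the GC7 libraries. GC7 library 3 fell below Mock library 1, so the groups overlapped, while the other GC7 libraries stood above all Mock libraries. The log2 fold change was 0.36 ± 0.088 (SE; edgeR adjusted p = 0.00365), and the call was lost when any of 5 libraries was left out (Mock 3, Mock 4, GC7 1, GC7 2 or GC7 4), with adjusted p between 0.0101 and 0.0147. *Mars1* (methionyl) was nearest to 0 of the complex, with 171, 175, 156 and 165 CPM in Mock and 181, 171, 142 and 174 CPM in GC7 (log2 fold change -0.00039 ± 0.077).

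The remaining complex synthetases did not pass the test. *Eprs*, a fused glutamyl and prolyl enzyme, had a log2 fold change of 0.25 ± 0.075 (edgeR adjusted p = 0.0117), and the groups did not overlap. The values of *Iars* (isoleucyl) at 0.031, *Qars* (glutaminyl) at -0.0014, *Kars* (lysyl) at -0.13 and *Rars* (arginyl) at -0.20 were smaller. *Kars* and *Rars* were lower in all 4 GC7 libraries than in any Mock library, with adjusted p of 0.0993 and 0.0265.

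The 3 scaffold genes of the complex did not move together. *Aimp2*, whose product links the aspartyl enzyme to the complex, fell, *Eef1e1* rose and *Aimp1* did not pass the test. The called share of these 3 genes was 66.7%, against 46.6% of all genes tested. *Aimp2* (chr5:143902704-143909847) measured 30.0, 32.0, 29.3 and 26.9 CPM in Mock and 19.7, 21.3, 16.6 and 19.5 CPM in GC7. The groups were clearly apart, and the log2 fold change was -0.62 ± 0.088 (edgeR adjusted p = 7.95e-05). Of the exonic bases of *Aimp2*, 29.4% overlap *Eif2ak1* on the opposite strand, which had a mean of 46.1 CPM in Mock and 50.1 CPM in GC7; whether reads of the overlap contributed was not tested.

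*Eef1e1* (chr13:38644207-38659058) measured 39.7, 38.4, 34.9 and 36.1 CPM in Mock and 48.7, 49.9, 47.3 and 45.4 CPM in GC7. All GC7 libraries were higher than all Mock libraries, with a log2 fold change of 0.36 ± 0.066 (edgeR adjusted p = 0.000563). *Aimp1* measured 107, 124, 106 and 107 CPM in Mock and 102, 113, 123 and 116 CPM in GC7, so that the groups overlapped (log2 fold change 0.031 ± 0.075).

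Among the 12 other cytosolic synthetases 3 rose and 2 fell, and 7 did not pass the test, with a median log2 fold change of -0.048. The called share was 41.7%, and 39.1% over all 23 cytosolic genes, against 46.6% of all genes tested. *Vars* (chr17:35000987-35016322) fell from 546, 581, 541 and 559 CPM in Mock to 422, 398, 368 and 430 CPM in GC7. Every GC7 library was below every Mock library, and the log2 fold change was -0.46 ± 0.066 (edgeR adjusted p = 8.34e-05). *Sars* (chr3:108424865-108445209) measured 432, 498, 426 and 429 CPM in Mock and 370, 381, 370 and 394 CPM in GC7. Its groups did not overlap either, but the change of -0.24 ± 0.067 lay close to the threshold (edgeR adjusted p = 0.00908) and did not pass it under 11 of 16 alternatives, where adjusted p reached 0.0544.

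The synthetase genes of this class that rose were *Wars*, *Aars* and *Farsb*. *Wars* (tryptophanyl, chr12:108860030-108894174) measured 92.7, 91.4, 87.2 and 92.1 CPM in Mock and 120.5, 137, 103 and 123 CPM in GC7. The lowest GC7 value, in library 3, was still above the highest Mock value, and the log2 fold change was 0.41 ± 0.079 (edgeR adjusted p = 0.000753). *Aars* (alanyl) rose from 211, 204.5, 205 and 205 CPM to 264, 275, 239 and 262 CPM, by 0.33 ± 0.059 on the log2 scale (edgeR adjusted p = 0.000435). The groups did not overlap. Of its exonic bases, 15.1% overlap other annotated genes, mostly *Exosc6* on the same strand, which is listed at 0 in every library.

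*Farsb*, the beta subunit of phenylalanyl-tRNA synthetase (chr1:78417975-78488897), measured 81.9, 79.3, 74.9 and 74.0 CPM in Mock and 91.3, 94.9, 96.2 and 90.7 CPM in GC7, again without overlap (log2 fold change 0.27 ± 0.058, edgeR adjusted p = 0.00181). *Farsa*, which encodes the alpha subunit of the same enzyme, had a log2 fold change of 0.043 ± 0.064 (edgeR adjusted p = 0.585). The difference between the subunits was not tested.

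*Nars* (asparaginyl) was nearest to 0 of the cytosolic synthetases outside the complex, with 289, 263.5, 269 and 267 CPM in Mock and 286, 298, 232 and 264 CPM in GC7 (log2 fold change -0.010 ± 0.078). The others that did not pass the test had log2 fold changes of 0.15 (*Yars*, tyrosyl), -0.086 (*Gars*), -0.10 (*Tars*, threonyl), -0.11 (*Cars*, cysteinyl) and -0.17 (*Hars*, histidyl). When 1 library was left out they ranged over 0.11 to 0.24 (*Yars*), -0.12 to -0.029 (*Gars*), -0.16 to -0.020 (*Tars*), -0.14 to -0.066 (*Cars*) and -0.21 to -0.099 (*Hars*).

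**Figure D2:**
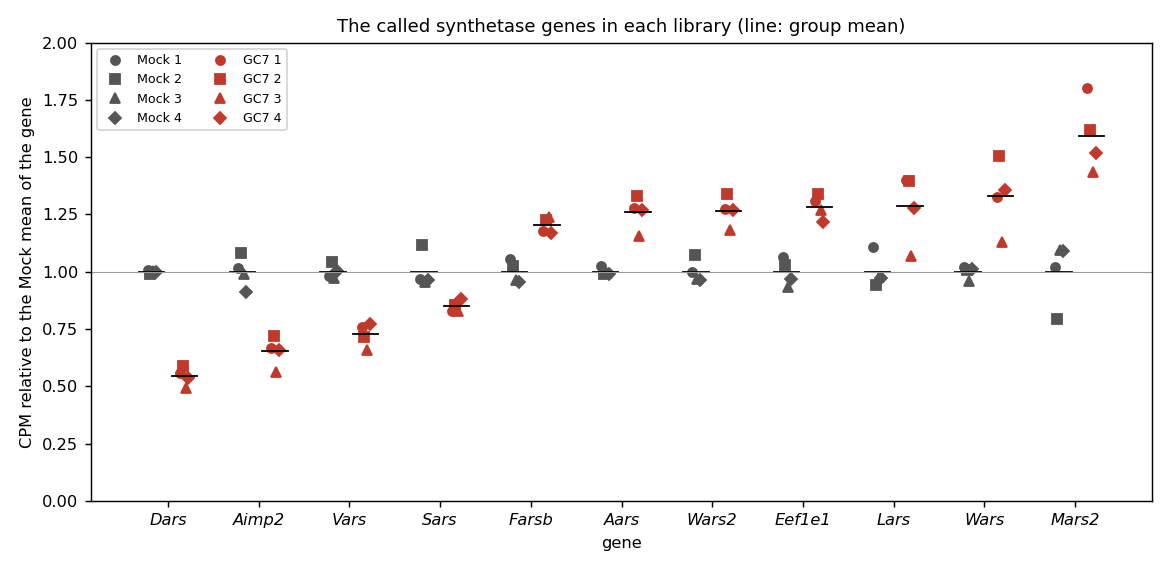
CPM of the 11 members past an FDR of 0.01 in each of the 8 libraries, divided by the Mock mean of that gene; the symbols mark the replicate number and lines the group mean. GC7 libraries lie below the Mock libraries for *Dars*, *Aimp2*, *Vars* and *Sars* and above them for the rest, except that 1 GC7 library of *Lars* lies among the Mock values.

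GC7 library 3 stood at the lower end of its group for most cytosolic synthetases. It was the lowest GC7 library for 19 of the 23 cytosolic genes (82.6%), compared with 35.1% of all genes tested, and for 8 of the 16 mitochondrial genes. In that library the cytosolic genes took 0.374% of raw counts, against 0.417% to 0.435% in the other GC7 libraries and 0.402% to 0.419% in the Mock libraries. Without GC7 library 3, 7 cytosolic genes were higher and 3 lower (43.5% called, against 44.2% of all genes tested in that fit), with *Eprs* (log2 fold change 0.30, edgeR adjusted p = 0.00375) and *Yars* (0.24, adjusted p = 0.00365) past the threshold. The mean share was 0.407% ± 0.00783 in Mock and 0.414% ± 0.0276 in GC7 (SD, n = 4), a difference smaller than the spread of the GC7 libraries. With TMM scaling the direction of the means turned, from a sum of 4230 ± 107 CPM in Mock to 4028 ± 251 CPM in GC7.

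Of the 16 mitochondrial synthetases, *Mars2* and *Wars2* rose, none fell and 14 did not pass the test in edgeR (12.5% called, against 46.6% of all genes tested). At an unadjusted p under 0.05, 2 were lower, and DESeq2 called 1 lower (*Iars2*) and limma-voom 0. At an FDR of 0.05, 8 of the 16 were called (50%) and 11 of the 23 cytosolic genes (47.8%), against 59.5% of all genes tested, and a difference between the classes was not tested. The median log2 fold change was 0.11, compared with -0.0014 over the 23 cytosolic genes and 0.018 over all genes tested. The 16 genes together took 0.0646% to 0.125% of raw counts in the Mock libraries (mean 0.0829%) and 0.0700% to 0.0791% in the GC7 libraries (mean 0.0733%), with *Lars2* in Mock library 4 at the high end. Leaving out *Lars2*, the share was 0.0351% to 0.0373% in Mock and 0.0387% to 0.0420% in GC7, without overlap. With TMM scaling the groups did overlap: the 15 genes summed to 377 to 383 CPM in Mock and 379 to 406 CPM in GC7.

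*Mars2*, the mitochondrial methionyl enzyme (chr1:55237177-55248470), measured 21.7, 16.9, 23.3 and 23.3 CPM in Mock and 38.4, 34.5, 30.6 and 32.3 CPM in GC7. All GC7 libraries were above all Mock libraries, and the log2 fold change of 0.68 ± 0.11 (edgeR adjusted p = 0.000198) was the strongest rise among the synthetases. *Wars2*, the mitochondrial tryptophanyl enzyme (chr3:99141068-99239186), measured 9.02, 9.69, 8.76 and 8.72 CPM in Mock and 11.5, 12.1, 10.7 and 11.5 CPM in GC7. The groups did not overlap, but the log2 fold change of 0.34 ± 0.090 (edgeR adjusted p = 0.00596) did not pass the threshold under 8 of 16 alternatives, where adjusted p reached 0.0230.

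The other mitochondrial enzymes were spread on both sides of 0. Positive log2 fold changes were found for *Ears2* (0.37), *Aars2* (0.31), *Pars2* (0.22), *Rars2* (0.20), *Tars2* (0.20), *Cars2* (0.13) and *Hars2* (0.094). Negative values were found for *Lars2* (-0.59), *Sars2* (-0.26), *Iars2* (-0.23), *Fars2* (-0.13, and -0.18 to -0.038 when 1 library was left out), *Vars2* (-0.12), *Yars2* (-0.047) and *Nars2* (-0.037). Of these, *Aars2*, *Tars2*, *Iars2*, *Sars2*, *Rars2* and *Ears2* had an adjusted p between 0.0122 and 0.0405 in edgeR. More than 10% of the exonic bases overlapped another gene in *Iars2* (24.2%, mostly *Rab3gap2* on the opposite strand, which measured 44.0 CPM in Mock and 34.9 in GC7) and *Fars2* (10.7%).

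*Lars2* (chr9:123366927-123462666) had the widest spread of the group, owing to 1 Mock library. It measured 286, 342, 387 and 906 CPM in Mock libraries 1 to 4 and 272, 287, 346 and 369 CPM in GC7. The groups overlapped, and the log2 fold change of -0.59 ± 0.29 did not pass the test (edgeR adjusted p = 0.0984). Without Mock library 4 it was -0.085 (adjusted p = 0.585). The same library was high for the ribosomal RNA gene *CT010467.1* on chromosome 17, which measured 598, 735, 732 and 3249 CPM in Mock and 506 to 616 CPM in GC7, and for its neighbour *Gm26917* with 390, 465, 465 and 675 CPM in Mock. Among the 9636 genes above 5 CPM in all 8 libraries, *CT010467.1* ranked 1 and *Lars2* ranked 4 by the excess of Mock library 4 over the highest other Mock library, which was 4.42-fold and 2.34-fold. Ranks 2 and 3 were *Gm24270* (2.89-fold) and *Gm23935* (2.65-fold), both annotated as miRNA genes. A match of *Lars2* transcripts to *CT010467.1* was not found by BLAST. The only match to the ribosomal RNA-like genes examined was one of 72 bases at 98.6% identity, between its 3′ untranslated region (chr9:123462048-123462119) and the antisense RNA *Gm15564*, which had 11, 16, 18 and 31 counts in Mock libraries 1 to 4 and 9 to 19 in GC7, and so was also highest in Mock library 4. The part of ribosomal RNA reads in the *Lars2* counts was not tested.

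**Figure D3:**
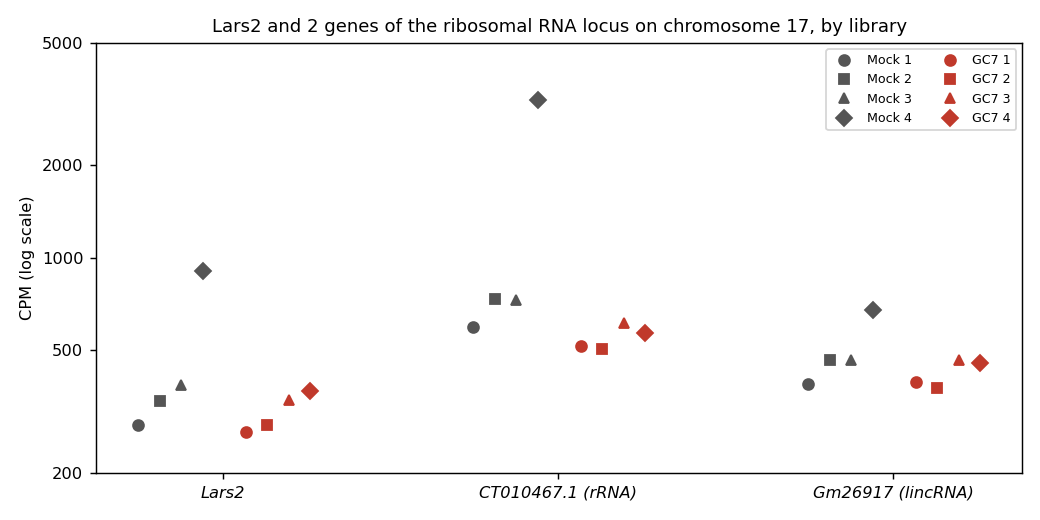
CPM of *Lars2*, the ribosomal RNA gene *CT010467.1* and its neighbour *Gm26917* in each library, on a log scale. Mock library 4 is the highest library for all 3 genes, at 906, 3249 and 675 CPM.

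For most amino acids the cytosol and the mitochondrion use different enzymes, and the pair for 1 amino acid could be compared within a library. There were 17 pairs, with *Eprs* and *Fars2* in 2 each. In 1 pair, *Wars* with *Wars2*, both enzymes passed the test, and both rose; the log2 ratio of *Wars* to *Wars2* was 3.33 ± 0.070 in Mock and 3.39 ± 0.099 in GC7 (SD, n = 4). In 10 pairs neither enzyme passed. The methionyl pair diverged most apart from the leucyl pair, which rests in part on *Lars2* in Mock library 4. The log2 ratio of *Lars* to *Lars2* was -1.14, -1.63, -1.76 and -2.99 in Mock libraries 1 to 4. In GC7 libraries 1 to 4 it was -0.73, -0.81, -1.47 and -1.30. The log2 ratio of *Mars1* to *Mars2* was 2.98 ± 0.28 in Mock, and the mean in GC7 minus that in Mock was -0.68. *Rars* to *Rars2* went from 1.99 ± 0.061 to 1.58 ± 0.076, and *Farsb* to *Fars2* from 2.06 ± 0.18 to 2.46 ± 0.13. *Vars* to *Vars2* went from 3.99 ± 0.042 to 3.65 ± 0.11. These ratios are descriptions without a test.

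**Figure D4:**
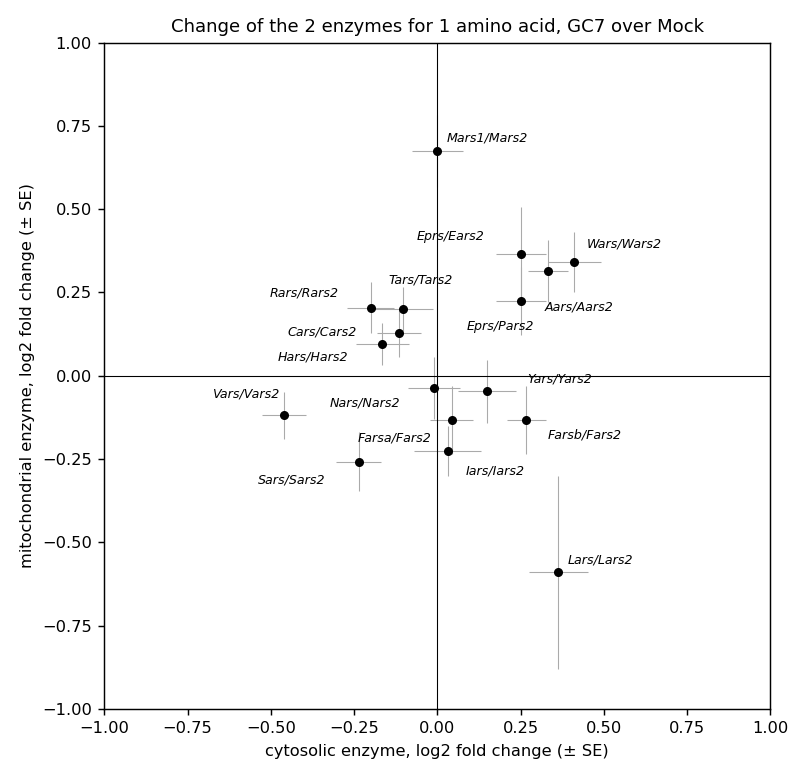
The log2 fold change (GC7 over Mock) of the cytosolic enzyme on the horizontal axis is plotted against that of the mitochondrial enzyme for the same amino acid, with standard errors, for 17 pairs. The pairs are found in all 4 quadrants, with *Mars1* and *Mars2* high on the vertical axis at 0.68.

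Other genes around tRNA charging were taken from a list of 40, of which 39 passed the filter. Of these 13 were higher in GC7, 1 was lower and 25 did not pass the test, with a median log2 fold change of 0.11. Among the 13 is 1 gene, *Chac1*, that entered the test through its GC7 libraries alone. The called share was 35.9% (33.3% higher and 2.56% lower), against 46.6% of all genes tested (23.0% higher and 23.5% lower). The genes for delivery of charged tRNA were among those that rose: *Eef1a1* by 0.57, *Eef1b2* by 0.67 and *Eef1g* by 0.54, while *Eef1d* had -0.059. Of these 4 genes 75% were thus higher, against 23.0% of all genes tested. The tRNA maturation and export genes *Pop1* (0.89), *Rpp40* (0.57), *Xpot* (0.47, the exportin of tRNA) and *Tsen54* (0.37) rose, and 6 others of that list did not pass. The called share in that list was 40%, all higher, against 46.6% of all genes tested (23.0% higher). *Tars3*, a threonyl-tRNA synthetase-like gene, rose by 0.60. Of 10 genes for mitochondrial amidation, formylation and translation, *Qrsl1* (0.79), a subunit of the glutamyl-tRNA amidotransferase, rose and *Mtrf1l* (-0.35), a mitochondrial release factor, fell. Here 20% were called, against 46.6% of all genes tested. The call for *Mtrf1l* (edgeR, adjusted p = 0.0076) was lost in 8 of 16 alternatives (by library totals, with the replicate block, and without Mock 1, 2 or 4 or GC7 1, 2 or 4), with an adjusted p of 0.0029 to 0.035 and a log2 fold change of -0.41 to -0.26 over all 16.

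Of the 10 genes for sensing of uncharged tRNA and the ATF4 pathway, 4 were higher in GC7 and 6 did not pass the test. The called share was 40%, all higher, against 46.6% of all genes tested (23% higher). *Sesn2*, an ATF4 and p53 target, measured 50.9, 48.4, 53.0 and 50.8 CPM in Mock and 134, 134, 128 and 129 CPM in GC7, with a log2 fold change of 1.37 ± 0.057 (edgeR adjusted p = 1.94e-09). The groups did not overlap, and the rise was more than 2-fold. *Chac1*, a glutathione-degrading ATF4 target, measured 2.67, 2.04, 2.98 and 2.00 CPM in Mock and 6.33, 4.69, 3.46 and 4.97 CPM in GC7, with a log2 fold change of 1.01 ± 0.20 (edgeR adjusted p = 0.000902). *Chac1* passed the filter of 3 CPM in 4 libraries through the GC7 libraries alone, which fixed that the groups do not overlap. In edgeR its adjusted p was 0.00083 with filterByExpr and 1.43e-07 with no filter. The fit with no filter also gave *Lars2* an adjusted p of 7.53e-12, against 0.0984 in the main fit, so its small values call for caution. *Asns* (asparagine synthetase) rose by 0.55 and *Impact*, a GCN2 inhibitor, by 0.55. *Atf4* itself had 390 ± 29.8 CPM in Mock and 361 ± 18.6 in GC7 (log2 fold change -0.11, edgeR adjusted p = 0.18). *Eif2ak4*, which encodes GCN2, had a log2 fold change of -0.10 (edgeR adjusted p = 0.299), *Trib3* -0.095, *Ddit3* 0.094, *Gcn1* 0.21 and *Eif2s1* 0.096. Messenger RNA level does not report the charging of tRNA, the activity of GCN2 or the amount of ATF4 protein, which were not measured here.

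**Figure D5:**
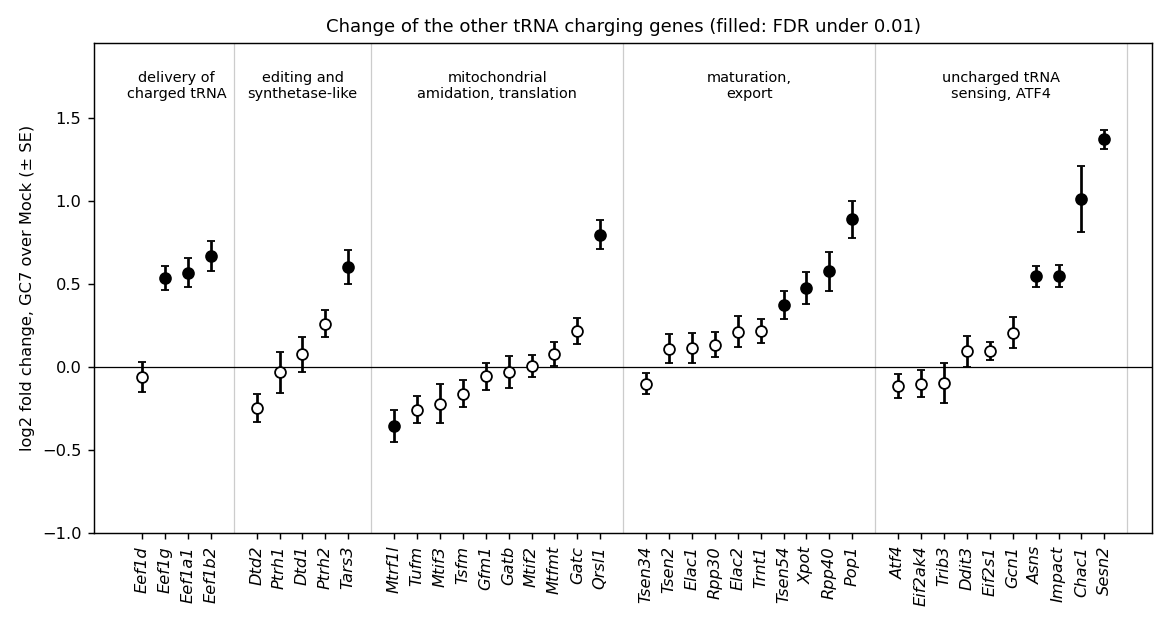
The log2 fold change (GC7 over Mock, with standard error) of 39 other genes around tRNA charging, grouped by role; filled circles passed an FDR of 0.01 in edgeR. *Sesn2* at 1.37 and *Chac1* at 1.01 are the only ones past a 2-fold change, *Chac1* having passed the filter through its GC7 libraries alone, and *Atf4* lies at -0.11.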

How the data were processed

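Messenger RNA of 4 Mock and 4 GC7 cultures was measured, with groups and replicate numbers taken from the sample titles. The authors deposited raw counts per Ensembl gene, 1 table per library, made per the methods by trimming paired-end reads with Cutadapt (version 2.3), alignment to GRCm38 with STAR (version 2.7.1a) and counting with featureCounts in Rsubread (version 1.6.4). Strand setting and treatment of multiply mapping reads are not given in the sources used here. All 55536 identifiers matched GENCODE M21, which is Ensembl 96. *Ddit3* has a second identifier without counts, which was not used.

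A gene was tested where 4 or more libraries exceeded 3 CPM, with edgeR (version 4.0.16, R version 4.3.3). The fit used TMM factors, the quasi-likelihood test and group as the only term. P-values were adjusted by Benjamini-Hochberg over all 11189 genes. A prior count of 2 entered only the log CPM values used to correlate libraries. The FDR threshold was 0.01. No p-value was adjusted over the synthetases alone. Alternatives were RLE factors, library totals, no filter, filterByExpr, DESeq2 (version 1.42.0), limma-voom (version 3.58.1), a replicate block, an FDR of 0.05, each library left out in turn and, chosen after the data were seen, Mock library 2 and GC7 library 3 left out together. The edgeR test with TMM factors, with RLE factors and with the block, limma-voom and DESeq2 were run on simulated counts with known changes; the other alternatives were not simulated. Copies were searched with BLAST (version 2.17.0, at least 200 bases, 90% identity). Transcripts of 6 members matched an annotated pseudogene, and none of the matched pseudogenes passed the filter. The 7 matches of *Yars* include receptor pseudogenes such as *Vmn1r-ps144*, so a match need not be a copy of the member. Figures used Python (version 3.11.15), pandas (version 2.3.3), numpy (version 2.4.6) and matplotlib (version 3.10.9).

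All members were named. Values by library were given, in each class, for up to 5 members past the FDR with the largest changes and for 1 member of opposite sign or nearest to 0. The members and the lists were chosen with earlier results of these data known. The promoter sequence of 1 member is not reported here.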

Additional observations from a re-analysis of the deposited data

Results flagged for a closer look

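Among 82 groups of 4 libraries examined, the gap of 1 library to its nearest neighbour, as a ratio of the whole range, was above Dixon's critical value in 9, where chance gives about 1 in 20, or 4.1. GC7 library 3 was the low one for *Rars* (ratio 0.912), *Farsa* (0.845) and *Yars* (0.921), and GC7 library 2 for *Aars2* (0.842). Mock library 2 was the high one for *Aimp1* (0.919) and *Sars* (0.921), and Mock library 1 for *Aars* (0.955) and for the cytosolic share of counts (0.831). Mock library 4 was the high one for *Lars2* (0.837); the ribosomal RNA gene *CT010467.1* was also highest in that library. Causes were not tested.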

How the results depend on the processing

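In all 16 alternatives *Dars*, *Aimp2* and *Vars* stayed lower and *Eef1e1*, *Aars*, *Farsb*, *Wars* and *Mars2* stayed higher past an FDR of 0.01, and no member passed a 2-fold change. The cytosolic counts stayed within 1.5 times of 5 higher and 4 lower, with 4 to 7 higher and 3 to 4 lower when 1 library was left out; by library totals they were 6 and 3, or 66.7% of calls higher against 55.6% (over all genes 61.9% against 49.5%, with 48.3% called). Of mitochondrial genes 2 were higher, and 5 by library totals, 5 without Mock 2 and GC7 3 and 6 at an FDR of 0.05 (1 to 3 without 1 library). Among them 1 was lower with no filter, with DESeq2 and without Mock 2 and GC7 3, and 2 at an FDR of 0.05 (0 to 1 without 1 library). Their called share was 31.2% by library totals (48.3% of all genes) and 37.5% without Mock 2 and GC7 3 (56.9% of all genes). With no filter the gene that was lower was *Lars2* (-0.59, adjusted p = 7.53e-12); the cause was not tested. Without Mock 2 and GC7 3, 17 members were called (43.6%, against 56.9% of all genes). The single other tRNA charging gene that was lower (*Mtrf1l*) became a count of 0 by library totals and with the replicate block, 2 with no filter, 2 with DESeq2 and 2 without Mock 2 and GC7 3 (0 to 1 without 1 library), and 13 to 14 were higher without 1 library. Library totals shifted the median of all genes by 0.094 and those of the members to 0.094 (complex synthetases), 0.093 (cytosolic), 0.20 (mitochondrial) and 0.095 (all); the median of all members was 0.052 without Mock 2 and GC7 3 and -0.024 to 0.052 without 1 library.

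Sign changes, all in members that did not pass the test, were as follows (log2). By library totals *Mars1* had 0.095, *Qars* 0.093, *Gars* 0.0092, *Nars* 0.084, *Nars2* 0.056 and *Yars2* 0.049. Without Mock 2 and GC7 3 *Mars1* had 0.097, *Gars* 0.012, *Nars* 0.044 and *Yars2* 0.071. Without 1 library, values ranged from -0.037 to 0.11 (*Iars*), -0.044 to 0.065 (*Mars1*), -0.052 to 0.024 (*Qars*), -0.014 to 0.092 (*Aimp1*), -0.065 to 0.052 (*Nars*), -0.080 to 0.0077 (*Nars2*) and -0.10 to 0.020 (*Yars2*).

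Same-numbered libraries correlated at 0.27, -0.12, 0.20 and -0.18, and libraries of unlike number at -0.31 to 0.42. Whether the numbers mark shared animals is not stated in the sources used here. The correlations cannot decide it, since those of unlike number spread as widely. With the replicate block 5 cytosolic and 2 mitochondrial genes were higher, 3 cytosolic genes and 0 mitochondrial genes were lower, and calls over all genes went from 5214 to 4867. Standard errors of the members ranged from 0.058 (*Farsb*) to 0.29 (*Lars2*). *Ears2*, with 110 counts in its lowest library (GC7 3), had a standard error of 0.14 and was not called at 0.37. It was called without GC7 3 (0.47, edgeR adjusted p = 0.00499) and without Mock 2 and GC7 3 (0.50, adjusted p = 0.00197). The part of depth was not tested.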
